A study of Mus musculus with 25 samples.

Results

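Atrial libraries labelled as female knockouts of Pam, 8 in number, were compared with each other, split by their level of Bmp10. Pam encodes peptidylglycine alpha-amidating monooxygenase, the copper enzyme that adds the C-terminal amide to many secreted peptides, and it is abundant in atrial myocytes. The Bmp10-low libraries, with under 1000 CPM (reads scaled to the library's total) of Bmp10, were KF14, KF16, KF18 and KF19, and the Bmp10-high libraries, with 1000 CPM or more, were KF15, KF17, KF20 and KF21, so 8 of the 25 libraries of the series were used, 4 in each class. The question was which genes other than Bmp10 go with the Bmp10 class where Pam is reduced. The members of both classes were thus chosen by a measured value: the Bmp10 levels are a description, and a test of another gene says that it goes with Bmp10 over these 8 libraries, not from which part of the atrium a library came.

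Messenger RNA of atria from adult mice of 60 to 90 days with no treatment was sequenced in 8 knockout females, 5 knockout males, 5 wild-type females and 7 wild-type males. The labels give no other allele, and which cells lost Pam, which exons were deleted and the strain are not given in these sources. Knockout females came from a set whose library names begin with LA or RA (5 libraries, called the LARA set) and a set whose names begin with CGI (3 libraries); both sets held both classes. The labels do not explain these letters, nor say whether 2 libraries came from 1 mouse, so p-values measure the spread between these libraries.

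BMP10 is a growth factor of the bone morphogenetic protein (BMP) family that atrial myocytes release into the blood, where it acts on the endothelial receptors ALK1 and endoglin and, inside the cell, on SMAD proteins and the Id genes. In the adult mouse heart its mRNA is known as a right atrial transcript. The right atrium also holds the sinoatrial node, the pacemaker tissue marked by Shox2 and Hcn4.

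Bmp10 itself (chromosome 6, 87428994 to 87437677, plus strand, GRCm38) had 1.26, 76.5, 444 and 58.3 CPM in KF14, KF16, KF18 and KF19, against 5009, 4811, 5091 and 6074 CPM in KF15, KF17, KF20 and KF21. The library nearest the threshold was KF18 on the low side and KF17 on the high side, and no library lay between 444 and 4811 CPM. The same threshold put KM01 (46.5 CPM) in the low class of knockout males and the other 4 knockout males (4950 to 7597 CPM) in the high class. Of the wild-type libraries, 5 were low (0.433 to 669 CPM) and 7 were high (1999 to 6410 CPM).

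**Figure D1:**
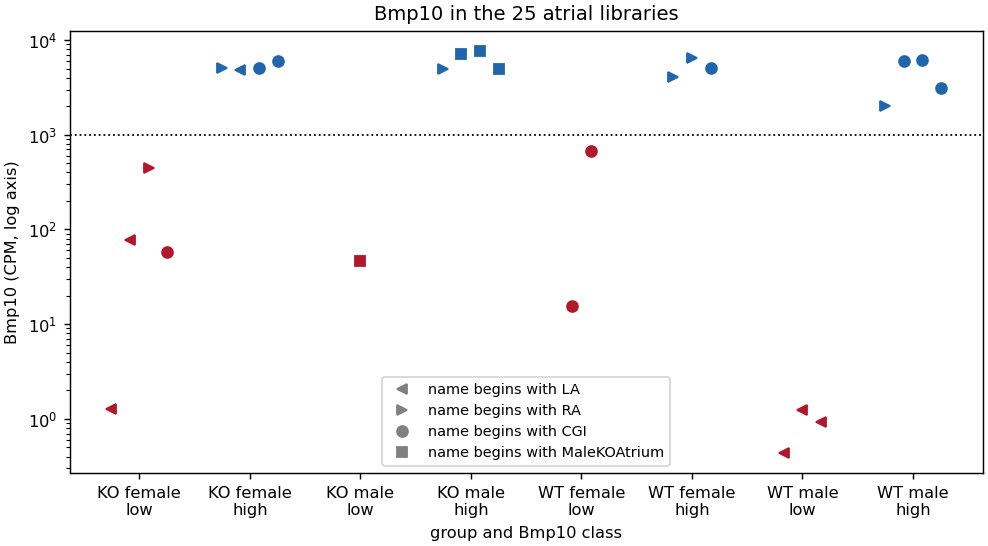
Bmp10 in each of the 25 libraries (CPM, log axis) by genotype, sex and Bmp10 class; the marker shape gives the start of the library's name and the dotted line the threshold of 1000 CPM. The knockout female low libraries lie between 1.26 and 444 CPM and the high ones between 4811 and 6074 CPM; 1 LA-named library is high and 1 RA-named library is low.

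Some libraries went against their names or stood apart, and the gene tests between the knockout female classes were also run with each library left out. The list medians and sums, the overlap with wild type and the test of the genotype difference were computed with all knockout female libraries. KF17 has a name that begins with LA, and KF18 one that begins with RA. The other LA-named libraries of the series were all Bmp10-low and the other RA-named libraries all Bmp10-high, so these 2 libraries have the Bmp10 class of the opposite letters. KF15 had a summed level of ventricle markers of 8577 CPM, against 2008 to 2841 CPM in the other Bmp10-high libraries and 2332 to 4572 CPM in the Bmp10-low ones. Sequencing depth was 4597974 to 5465259 reads in the low class and 4903114 to 7376149 in the high class. Mitochondrially encoded transcripts took 8.72 to 12.97% of the reads in the low class and 7.80 to 10.01% in the high class; the part of either measure in the results was not tested.

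The targeted gene did not separate the classes. Pam had 358, 471, 497 and 295 CPM in the low libraries (405 ± 95.3, SD, n = 4), against 383, 520, 416 and 463 CPM in the high libraries (446 ± 59.7, SD, n = 4). The log2 difference of -0.16 gave p = 0.486 in an exact two-sided permutation test over 70 splits, of which the smallest possible p is 0.0286. All 8 values lay below the 1409 to 6245 CPM of the wild-type libraries.

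Promoter sequence is shown for the gene that defined the classes and for 3 genes that went with it and are described below: Hamp, with letters for a GATA site and for a GC-rich SMAD site in 1 promoter, Cd207, the gene of the largest difference, and Adm, which holds none of the motifs searched. Each is the 250 bases before the RefSeq transcription start (GRCm38.p6), 5′ to 3′ on the gene's strand, at chr6:87428744-87428993 (plus) for Bmp10, chr7:30944030-30944279 (minus) for Hamp, chr6:83677858-83678107 (minus) for Cd207 and chr7:110627407-110627656 (plus) for Adm. Capitals mark the matches of 3 motifs on either strand.

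Bmp10: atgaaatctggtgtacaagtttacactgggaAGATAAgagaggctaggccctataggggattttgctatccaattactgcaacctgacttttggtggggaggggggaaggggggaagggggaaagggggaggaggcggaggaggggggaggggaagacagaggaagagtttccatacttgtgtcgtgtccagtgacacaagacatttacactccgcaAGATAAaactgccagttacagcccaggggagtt
Hamp: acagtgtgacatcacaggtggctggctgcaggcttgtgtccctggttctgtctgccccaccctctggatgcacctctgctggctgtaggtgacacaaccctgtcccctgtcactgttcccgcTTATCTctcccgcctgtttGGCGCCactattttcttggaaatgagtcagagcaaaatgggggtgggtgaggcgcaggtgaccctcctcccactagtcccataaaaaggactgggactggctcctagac
Cd207: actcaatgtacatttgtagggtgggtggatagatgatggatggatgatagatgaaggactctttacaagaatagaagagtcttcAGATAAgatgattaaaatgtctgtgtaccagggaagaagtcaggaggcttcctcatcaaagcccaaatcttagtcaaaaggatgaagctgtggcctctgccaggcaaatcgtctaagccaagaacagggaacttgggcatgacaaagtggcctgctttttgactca
Adm: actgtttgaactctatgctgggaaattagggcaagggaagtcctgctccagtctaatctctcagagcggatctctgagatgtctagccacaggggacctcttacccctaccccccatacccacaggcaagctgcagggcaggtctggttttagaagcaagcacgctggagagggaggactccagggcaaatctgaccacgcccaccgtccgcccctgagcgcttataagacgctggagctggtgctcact

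The motifs were AGATAA, bound by zinc-finger factors of the GATA family, GGTGTG, bound by T-box factors, and GGCGCC, bound by SMAD proteins, and no 2 matches overlapped. Bmp10 held AGATAA at 219 and 33 bases before the start, Cd207 held it at 166, and Hamp held it at 128 on the other strand beside GGCGCC at 109. AGATAA was found in 12.6% of 111 promoters of genes lower in the low class, in 8.70% of 46 promoters of genes higher there and in 10.3% of all 27025 promoters searched. That last set is not limited to the genes tested here. GGTGTG was found in 18.02%, 30.4% and 16.2% of these promoters, and GGCGCC in 9.91%, 13.04% and 9.54%. A match is a string of letters and not a measured site.

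Of 14456 genes tested besides Bmp10, 206 (1.43%) passed an adjusted p of 0.05 between the Bmp10 classes of the knockout females and are called below; 70 (0.484%) were higher and 136 (0.941%) lower in the Bmp10-low libraries. The test was limma on log2(CPM + 1) with the name set as a term and Benjamini-Hochberg adjustment over all genes; differences are low minus high on that scale, which understates low genes. All 206 had the same direction in the LARA and the CGI set, and the ranges of the classes did not overlap for 200 of them, against 1201 of all genes (8.31%). The 206 were chosen by their difference in these same libraries, so both counts are a description only. Genes whose classes did not overlap and whose means lay at least 2-fold apart numbered 400 (2.77%), of which 278 (1.92%) were lower and 122 (0.844%) higher in the low class. The split between directions depended on the scaling: the median difference of all genes was -0.13 as deposited and 0.01 with median-ratio scaling, which called 117 genes higher and 117 lower, and 183 of the 206 were called there too. The count also depended on single libraries: it was 55 without KF19, 75 without KF17, 98 without KF21, 103 without KF20 and 120 without KF18, and 39 without both KF17 and KF18.

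Among the 49 called genes named below, 19 kept their call whichever library was left out: Cd207, Vsig4, Efnb3, Cxcl13, Hamp, Dct, Arpp21, Gsg1l, Igfbp3, Adm, Dbh, Sfrp2 and Shox2 among the lower ones, and Ppp1r1b, Gm13715, Xpnpep2, Anxa8, Aldh3a1 and Scara5 among the higher ones. For the others the libraries whose removal ended the call are given in their paragraph. None of the 49 changed direction in any alternative.

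Cd207 and Vsig4 had the largest differences of the called genes. Cd207 encodes langerin, a C-type lectin of Langerhans cells and some other dendritic cells and macrophages. The gene (chromosome 6, 83671215 to 83677857, minus strand, GRCm38) had 1.47, 2.31, 8.97 and 5.22 CPM in the Bmp10-low libraries, against 103, 112, 106 and 118 CPM in the Bmp10-high libraries. The classes lay far apart, with a mean 24.5-fold lower in the low class and -4.48 ± 0.38 (SE) on the log2 scale (limma adjusted p = 0.000618). Vsig4, a complement receptor of tissue-resident macrophages, had 3.37, 8.41, 17.6 and 8.48 CPM in the low libraries, against 98.2, 114, 102 and 126 CPM in the high ones. For both genes KF18 was the highest of the low libraries and still far below every high one. Cxcl13, a chemokine that attracts B cells, had 2.32, 2.31, 4.76 and 1.52 CPM, against 24.2, 38.5, 15.3 and 52.2 CPM (log2 difference -3.19, limma adjusted p = 0.00214).

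The general macrophage markers moved less than these genes, which were themselves named for their large differences. Of 12 listed and measured, 12 had a negative difference, against 9902 of all 14456 genes. Called were 2, both lower in the low class (0.941% of all genes were). These were Ccr2, the chemokine receptor of recruited monocytes (log2 difference -1.21, limma adjusted p = 0.0163), and Cx3cr1, the fractalkine receptor (-1.35, limma adjusted p = 0.0274). Both calls rested on several libraries, with highest adjusted p values of 0.140 without KF19 for Ccr2 and 0.168 without KF17 for Cx3cr1. Ccr2 was also lost without KF17, KF18 or KF21, and Cx3cr1 without KF15, KF18, KF19, KF20 or KF21. Adgre1, which encodes the macrophage antigen F4/80, had 22.8 to 32.8 CPM in the low class, against 37.8 to 50.8 CPM in the high class, and did not pass the test (limma adjusted p = 0.0615). The median difference of the list was -0.28, against -0.13 for all genes, and its summed level of 1134 to 1316 CPM in the low class overlapped the 1180 to 1610 CPM of the high class. In whole atria, fewer cells of a type and less RNA per cell cannot be told apart. Higher in the low class were Cd209f, a C-type lectin of the DC-SIGN family (7.18 to 20.9 CPM, against 1.08 to 6.73 CPM; log2 difference 1.80, limma adjusted p = 0.00736), whose call was lost without KF19 (limma adjusted p = 0.0892), and Scara5, a ferritin-binding scavenger receptor (41.5 to 50.3 CPM, against 5.97 to 16.5 CPM; log2 difference 1.79, limma adjusted p = 0.00335).

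Of the genes of left-right identity and of the sinoatrial node, 7 were called lower in the low class (0.941% of all genes were). Of 21 listed, 19 were measured. Of these, 1 was called higher (0.484% of all genes were) and 11 did not pass, with a median difference of -1.10 against -0.13 for all genes.

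Shox2, the homeobox factor that keeps nodal cells from becoming working myocardium, had 4.42, 3.15, 2.93 and 3.48 CPM in the low libraries, against 12.2, 21.4, 11.8 and 12.6 CPM in the high libraries. Its log2 difference was -1.81 ± 0.24 (SE, limma adjusted p = 0.00412). Hcn4, the pacemaker channel, had 0.421, 1.68, 2.93 and 1.30 CPM, against 5.77, 21.8, 14.9 and 7.73 CPM (log2 difference -2.34, limma adjusted p = 0.0235). Both genes were thus separated between the classes, Hcn4 over a wider spread. Cacna2d2, an auxiliary calcium channel subunit, differed by -2.95, Cpne5, a copine that binds membranes in response to calcium, by -1.995, Kcnip2, the partner subunit of the transient outward potassium channel, by -1.71, and Vsnl1, a neuronal calcium sensor also known from the node, by -1.63. The calls of Hcn4, Cacna2d2, Cpne5, Kcnip2 and Vsnl1 were each lost without KF17 and without KF19, with highest adjusted p values of 0.175, 0.140, 0.203, 0.243 and 0.0933. Without KF20 the calls of Hcn4 (0.0610), Cpne5 and Kcnip2 were lost too, without KF21 those of Cpne5 and Kcnip2, without KF14 and KF18 that of Cpne5, and without KF15 that of Kcnip2.

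Hamp (chromosome 7, 30942368 to 30944032, minus strand, GRCm38) encodes the iron hormone hepcidin and counts in this list and in the BMP list. It had 3.79, 10.7, 16.5 and 26.3 CPM in the low libraries, against 104, 112, 169 and 84.7 CPM in the high libraries. It was 8.21-fold lower in the low class (log2 difference -2.99 ± 0.41, SE, limma adjusted p = 0.00552). Reads of Hamp and of its near-identical copy Hamp2, which is not measured here, may be shared. Members that did not pass included Rgs6, a regulator of vagal signalling (log2 difference -1.25, limma adjusted p = 0.0951), Cacna1d, a pacemaker calcium channel (-1.50, limma adjusted p = 0.287), Tbx3, the node's T-box repressor (-1.09, limma adjusted p = 0.257) and Tbx18, a T-box factor of the developing node (-0.22, limma adjusted p = 0.761).

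**Figure D2:**
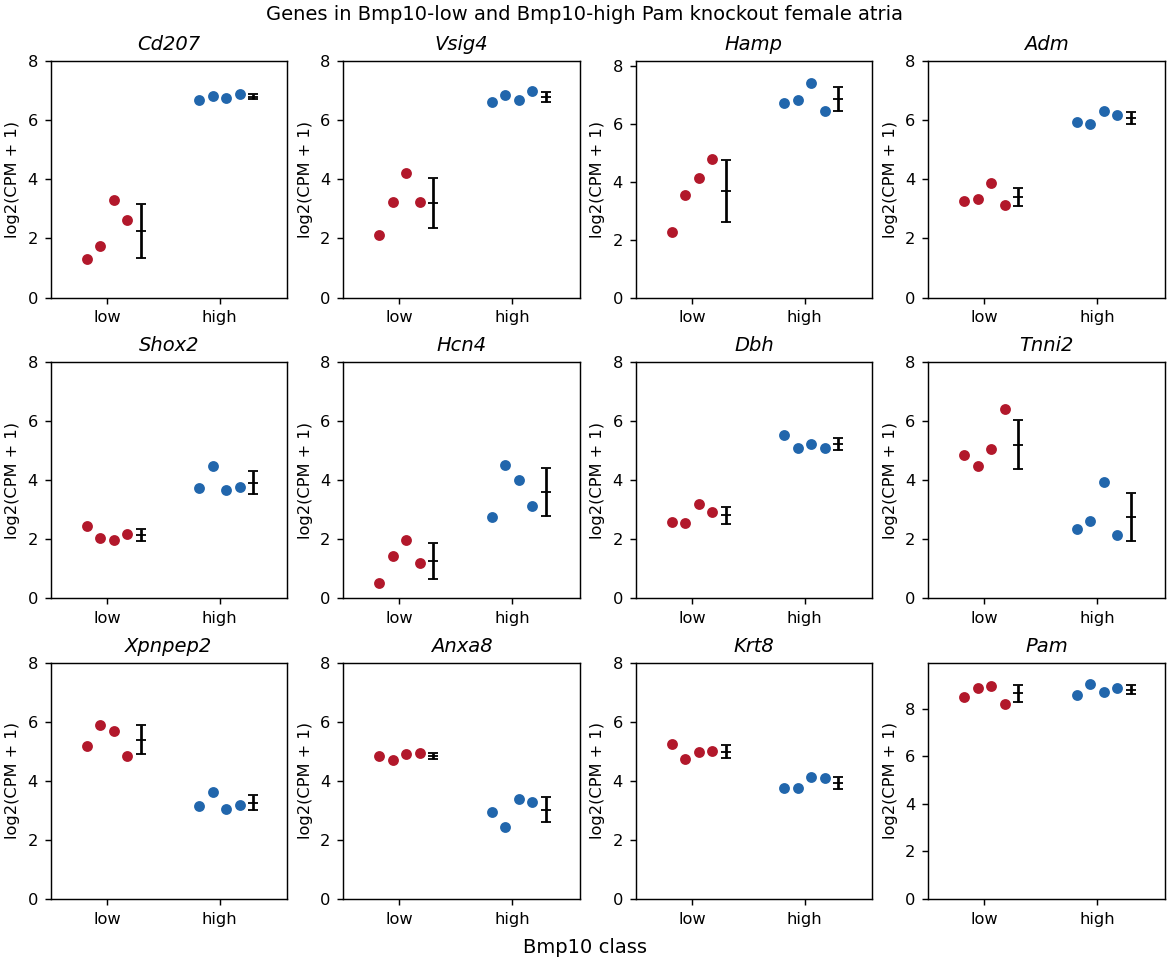
Levels of 12 genes in the 4 Bmp10-low and the 4 Bmp10-high Pam knockout female libraries (log2(CPM + 1)); points are libraries, and the black bar is the mean with its SD (n = 4). The classes do not overlap for 11 of the genes, while Pam overlaps; Cd207 has the widest gap, with all low libraries at or under 8.97 CPM and all high ones at or over 103 CPM.

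Of 36 listed genes of the BMP pathway around Bmp10, 31 were measured; 3 were called lower in the low class (0.941% of all genes were), 1 was called higher (0.484% of all genes) and 27 did not pass, with a median difference of -0.27 against -0.13 for all genes. Besides Hamp, a BMP target in the liver, the lower genes were Smad9, which encodes a receptor-activated SMAD (3.37, 3.36, 4.03 and 2.39 CPM in the low libraries, against 7.74, 11.8, 14.1 and 12.1 CPM in the high ones), and Bmp5, a ligand (1.05 to 3.04 CPM in the low class, against 5.51 to 9.42 CPM in the high class). The gene called higher was Chrd, which encodes the BMP antagonist chordin, with 10.1, 12.2, 13.7 and 7.18 CPM in the low libraries, against 1.98, 4.28, 3.68 and 4.07 CPM in the high ones (log2 difference 1.36, limma adjusted p = 0.0369). The classes of Smad9, Bmp5 and Chrd did not overlap, but the call of Chrd was lost whichever library was left out (limma adjusted p 0.0590 to 0.115), that of Bmp5 without KF15, KF17, KF19 or KF20 (highest 0.0893), and that of Smad9 without KF17 or KF19 (highest 0.131). The receptor genes of BMP10 did not pass: the log2 difference was -0.26 for Acvrl1, which encodes ALK1 (limma adjusted p = 0.629), -0.31 for Eng (0.629 by the same test) and -0.20 for Bmpr2 (0.779). The target Id1 (log2 difference -0.39, limma adjusted p = 0.555) did not pass either. Acvrl1, Eng, Bmpr2 and Id1 were not among the genes of smallest p of this list and were named with their values known.

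Of the peptide hormone genes, the one for adrenomedullin stood out; adrenomedullin is a vasodilator peptide that needs a C-terminal amide for its activity. Adm (chromosome 7, 110627661 to 110629820, plus strand, GRCm38) had 8.64, 9.04, 13.5 and 7.83 CPM in the low libraries, against 59.8, 57.1, 78.5 and 71.0 CPM in the high libraries. The classes did not overlap, and the mean was 6.82-fold lower in the low class (log2 difference -2.65 ± 0.21, SE, limma adjusted p = 0.000603). Of 17 measured atrial peptides and receptors, 1 other was called, also lower (0.941% of all genes were). This was Aplnr, the apelin receptor, with 1.90 to 6.96 CPM, against 9.38 to 20.0 CPM (log2 difference -1.56, limma adjusted p = 0.0127, lost without KF19 at 0.0802). Nppa, which encodes atrial natriuretic peptide, had 1296 to 1761 CPM in the low class, against 863 to 1490 CPM in the high class, and did not pass (limma adjusted p = 0.642). None of 13 measured genes of secretory granules and peptide processing was called (median difference -0.14, against -0.13 for all genes).

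Dbh, dopamine beta-hydroxylase, makes noradrenaline and is a copper enzyme of the same family as Pam. It had 5.06, 4.84, 8.05 and 6.52 CPM in the low libraries, against 45.1, 33.0, 36.5 and 32.8 CPM in the high libraries (log2 difference -2.43 ± 0.22, SE, limma adjusted p = 0.000655). It was the only one of 6 measured nerve and Schwann cell markers to be called. The summed level of the list, Dbh included, was 53.3 to 74.1 CPM in the low class, against 98.8 to 114 CPM in the high class. The sum was not computed without Dbh, so it is not separate from the call of that gene.

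Other genes with the largest decreases came from no single list. Igfbp3, which binds insulin-like growth factors, had 36.2, 46.5, 63.3 and 27.6 CPM in the low libraries, against 248, 365, 226 and 228 CPM in the high libraries. Efnb3, a ligand of Eph receptors, had 4.21, 6.31, 6.77 and 2.17 CPM, against 36.2, 70.8, 33.7 and 48.5 CPM. Dct, dopachrome tautomerase of melanin synthesis, had 2.11, 0.631, 0.915 and 0.870 CPM, against 17.3, 21.01, 13.8 and 6.64 CPM. All 3 were separated between the classes, with log2 differences of -2.77, -3.22 and -2.98. Tyrp1, another enzyme of melanin synthesis and named with its values known, was at 0 to 0.435 CPM in the low class, at or below the level of 3 reads in each library, against 1.76 to 7.08 CPM in the high class (limma adjusted p = 0.0123, lost without KF17 at 0.0878). Cntn2, a neural adhesion protein also found in the conduction system (log2 difference -2.86), Gsg1l, an auxiliary subunit of glutamate receptors (-2.85), Arpp21, a cAMP-regulated phosphoprotein (-2.92), and A2m, a protease inhibitor (-3.35), were lower as well; the calls of Cntn2 and A2m were lost without KF19 (limma adjusted p = 0.0802 and 0.0511). Of Wnt antagonists, chosen after their values were seen, Sfrp2 (log2 difference -1.97, limma adjusted p = 0.00157) and Sfrp5 (-2.27, limma adjusted p = 0.00355, lost without KF19 at 0.0506) were lower.

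Genes higher in the low class were led by Tnni2, the fast skeletal isoform of troponin I (chromosome 7, 142441808 to 142444410, plus strand, GRCm38). It had 27.8, 21.4, 32.2 and 84.4 CPM in the low libraries, against 4.12, 5.10, 14.4 and 3.39 CPM in the high libraries (log2 difference 2.69 ± 0.38, SE, limma adjusted p = 0.00571). It was the only one of 6 measured skeletal muscle markers to be called, and the summed level of that list was 417 to 551 CPM in the low class, against 394 to 928 CPM in the high class. Xpnpep2, an aminopeptidase that cleaves bradykinin, had 34.98, 58.02, 50.9 and 27.4 CPM, against 7.91, 11.4, 7.36 and 8.13 CPM. Ppp1r1b, the phosphatase inhibitor DARPP-32, had 33.3, 63.5, 50.1 and 26.3 CPM, against 4.45, 12.03, 9.28 and 7.19 CPM. Both lay apart between the classes, with log2 differences of 2.01 and 2.18. Aldh3a1, an aldehyde dehydrogenase, differed by 1.93, Anxa8, an annexin, by 1.93, Ddit4l, an inhibitor of mTOR signalling, by 2.28 and Iyd, iodotyrosine deiodinase, by 2.30; Iyd was the one of these whose classes overlapped (1.05 to 17.2 CPM, against 0.165 to 1.47 CPM). Gm13715, Gm11716 and 2310039L15Rik, for which no role is given here, differed by 2.14, 1.77 and 1.85. Without KF19 the calls of Tnni2, Ddit4l, Iyd, Gm11716 and 2310039L15Rik were lost (limma adjusted p = 0.0884, 0.0906, 0.283, 0.0678 and 0.153), as were those of Iyd and 2310039L15Rik without KF17 or KF18 and that of Iyd without KF20 or KF21.

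Of the markers of the epicardium and mesothelium, the cell layer that covers the heart, 3 were called higher in the low class (0.484% of all genes were). All 16 listed genes were measured, none was called lower and 13 did not pass; the median difference was 0.55, against -0.13 for all genes. Krt8 had 36.9, 25.6, 30.4 and 31.5 CPM in the low libraries, against 12.7, 12.4, 16.3 and 16.3 CPM in the high libraries. Msln, mesothelin, had 163, 207, 198 and 155 CPM, against 82.4, 73.2, 110.4 and 94.5 CPM. The third was Krt18, the keratin partner of Krt8, with a log2 difference of 0.98. The summed level of the list was 1231 to 1678 CPM in the low class, against 808 to 1163 CPM in the high class, and these ranges did not overlap. The part of this cell layer in the other results was not tested. The call of Krt8 was lost without KF17 or KF19 (highest limma adjusted p = 0.0996), that of Msln without KF15, KF17, KF18 or KF21 (0.154) and that of Krt18 without any library but KF15 (0.210).

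Lists of other cell types had 1 or 2 called genes each where they had any. Of all genes, 0.941% were called lower and 0.484% higher in the low class. Of 10 measured smooth muscle and pericyte markers, Acta2, smooth muscle actin, was lower in the low class (86.4, 29.4, 54.0 and 14.8 CPM in the low libraries, against 320, 138, 96.4 and 143 CPM in the high libraries; log2 difference -2.33, limma adjusted p = 0.0123), and so was Cnn1, calponin (-1.62, limma adjusted p = 0.0438). The highest Acta2 value was that of KF15, the library with the high ventricle markers; without KF15 the difference was -2.11 (limma adjusted p = 0.0351), and without KF19 the call was lost (0.140). The call of Cnn1 was lost without KF16, KF17, KF18, KF19, KF20 or KF21 (highest 0.382), and under median-ratio scaling (0.0599). Of 7 lymphatic markers 1 was called, the chemokine gene Ccl21a (6.04 to 7.39 CPM in the low class, against 0.542 to 3.06 CPM in the high class; log2 difference 1.47, limma adjusted p = 0.0274), whose reads may be shared with near-identical copies and whose call was lost without KF14, KF15, KF18, KF19, KF20 or KF21 (highest 0.246). Casq1, the skeletal isoform of calsequestrin, was the 1 called gene of 18 in calcium handling (log2 difference -1.65, limma adjusted p = 0.0123, lost without KF19 at 0.131). Angpt1 and Angpt2, ligands of the endothelial receptor TIE2 that were chosen after their values were seen, differed in opposite directions: Angpt1 had 863 to 1355 CPM in the low class, against 445 to 657 CPM in the high class (log2 difference 0.97, limma adjusted p = 0.0335), and Angpt2 had 10.9 to 24.0 CPM, against 24.1 to 54.0 CPM (-1.27, limma adjusted p = 0.0391). Both calls were lost without KF14, KF19, KF20 or KF21, that of Angpt1 also without KF15 or KF18 and that of Angpt2 also without KF16 or KF17 (highest 0.242 and 0.248).

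**Figure D3:**
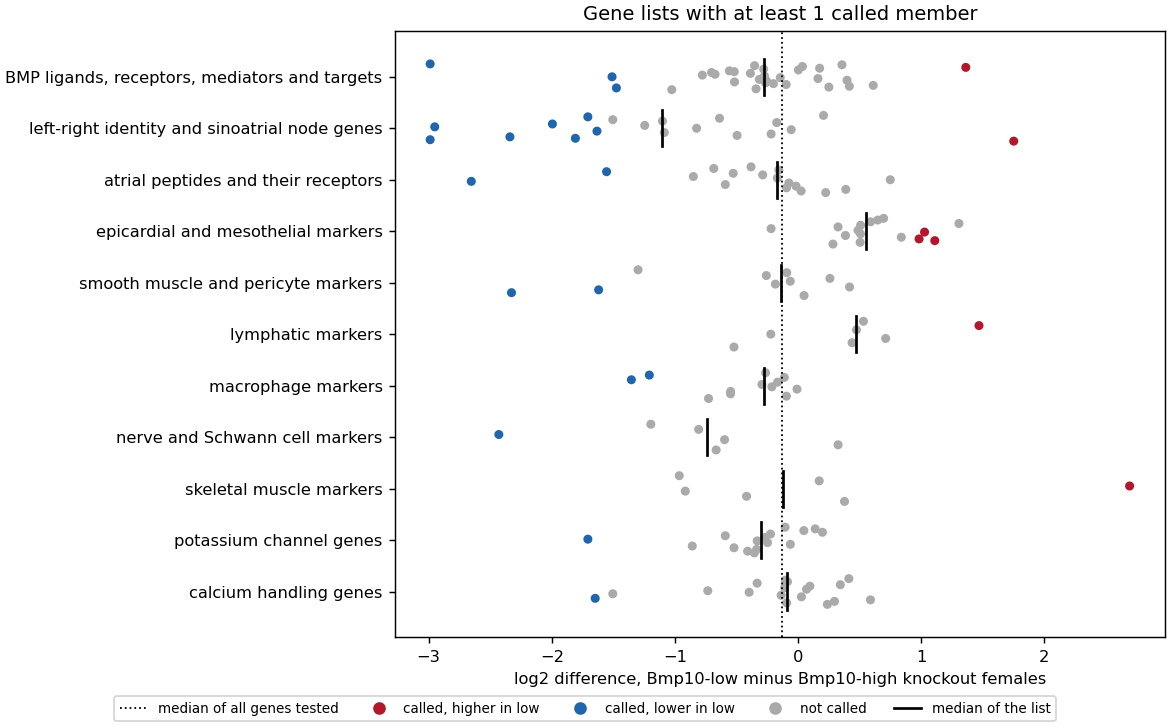
Differences between the Bmp10 classes of knockout females (log2, low minus high) for the measured members of the 11 gene lists with at least 1 called gene; a point is a gene, coloured where called, the black bar is the list's median and the dotted line the median of all genes (-0.13). The left-right and sinoatrial list has its median at -1.10, and the epicardial list at 0.55.

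None of 13 atrial myocyte markers, 24 cardiac transcription factors, 9 ventricle markers or 20 fatty acid oxidation genes passed the test; in all, 22 of the 33 lists had no called member, with medians between -0.53 and 0.998. Myl7, atrial myosin light chain, had 4439 to 6828 CPM in the low class, against 3064 to 4679 CPM in the high class (log2 difference 0.41, limma adjusted p = 0.480), and Sln, sarcolipin, had 2606 to 3550 CPM, against 1625 to 2505 CPM (0.59, limma adjusted p = 0.259). These levels show atrial tissue in both classes. Tbx20, a cardiac T-box factor, was the cardiac transcription factor of smallest p (log2 difference -0.98, limma adjusted p = 0.0848). The immediate early genes had the highest median, 0.998, with none of 13 called; their summed level reached 1162 and 1045 CPM in KF14 and KF16, so 2 of the 4 low libraries carried it.

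The wild-type libraries, none of which was used to choose the knockout classes, were split at the same Bmp10 threshold for comparison. Their low class held 3 males and 2 females and their high class 4 males and 3 females. There 404 genes were called (2.79%), 29 higher (0.201%) and 375 lower (2.59%) in the low class, a count that was 204 without WM2, 207 without WM3 and 2291 without WF12. The median difference of all genes in wild type was -0.25 as deposited and -0.004 with median-ratio scaling, which called 249 genes. The part of the scaling in the split between directions and in the shared directions below was not tested. WF10, the shallowest wild-type library (2246887 reads), had 30.2% mitochondrially encoded transcripts, and the count was 410 without it. Of the 206 genes called in knockout females, 200 had the same direction in wild type, against 72.3% of all genes, and 103 were called in both, 50% of the knockout female calls and 25.5% of the wild-type calls. Of the 375 genes lower in wild type 366 were lower in the knockout females too, and of the 29 higher ones 26 were higher. Cd207 (log2 difference -4.48 in knockout females and -5.06 in wild type), Vsig4 (-3.56 and -3.82), Hamp (-2.99 and -3.77), Adm (-2.65 and -2.98), Dbh (-2.43 and -2.33) and Shox2 (-1.81 and -2.07) were among those called in both.

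Genes that were higher in the knockout low class had smaller differences in wild type, on the deposited scale. On that scale the median of all genes also lay lower in wild type (-0.25) than in knockout females (-0.13). With median-ratio scaling these medians were -0.004 and 0.01, and the differences of the higher genes were not compared there. The median log2 difference of the 70 higher genes was 1.33 in knockout females, where they were chosen, and 0.54 in wild type, and that of the 136 lower genes was -1.49 and -1.31. Since these genes were selected on their difference in the knockouts, the medians are a description. The test of the difference itself, in 1 fit over both genotypes, called no gene (0%), with 382 genes at an unadjusted p under 0.05. Among these were 21 of the 70 higher genes and 16 of the 136 lower genes. The knockout difference that chose these genes is a part of the contrast, so both counts are a description only. The smallest p belonged to Slc15a2, a peptide transporter, which had 0.652 to 5.69 CPM in the low class and 7.41 to 16.2 CPM in the high class of knockout females; its difference was -1.74 in knockout females and 1.14 in wild type, a difference of -3.01 (95% confidence interval -4.34 to -1.69, limma adjusted p = 0.995). Efnb3 differed by -3.22 in knockout females and -1.32 in wild type (difference -1.90, interval -3.18 to -0.62), Acta2 by -2.33 and -0.20 (difference -2.14, interval -3.39 to -0.88), Anxa8 by 1.93 and 0.52 (difference 1.23, interval 0.48 to 1.98) and Msln by 1.03 and -0.15 (difference 1.02, interval 0.23 to 1.82); none of these passed after adjustment, and the intervals are not adjusted. The epicardial list, with a median difference of 0.55 in knockout females, had one of -0.21 in wild type. WF10 lay low there: Msln was at 25.4 CPM in WF10, against 101 to 241 CPM in the other wild-type low libraries. Krt8 was at 6.23 CPM in WF10, against 20.8 to 85.0 CPM in those libraries. The wild-type high libraries had 77.4 to 177 CPM of Msln and 17.9 to 36.0 CPM of Krt8. The wild-type differences of single genes and of the list were not computed without WF10.

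**Figure D4:**
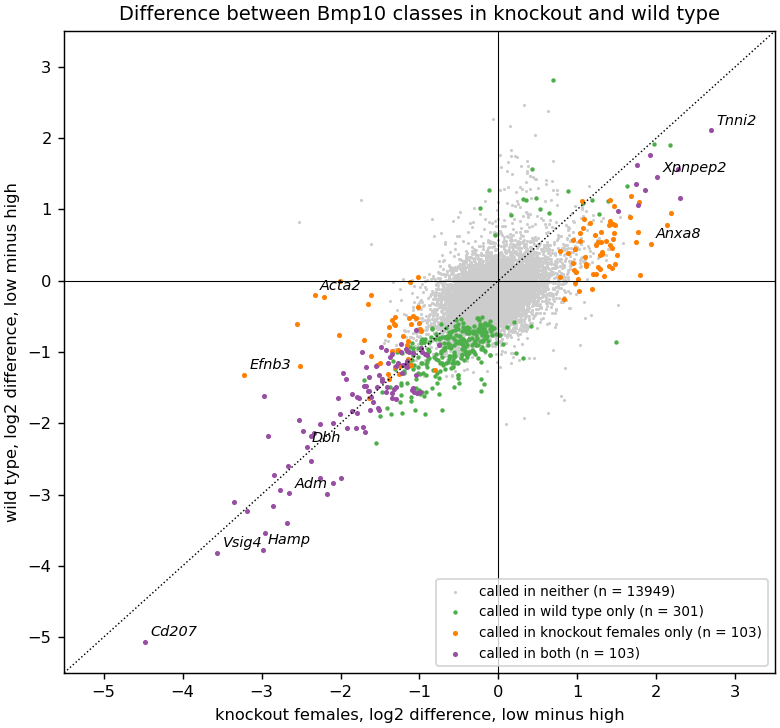
Difference between Bmp10 classes (log2, low minus high) of each of 14456 genes in knockout females (horizontal) and in wild type (vertical); colours give where a gene was called, and the dotted line marks equal differences. Of the 206 genes called in knockout females 200 lie on the same side of 0 in wild type; most of the called higher genes, such as Anxa8 at 1.93 and 0.52, lie below the dotted line.

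Each knockout female library could be placed by the genes called in wild type, a choice that used none of their values. The mean log2 level of the 375 genes lower in the wild-type low class was 3.36, 3.83, 3.82 and 3.59 in KF14, KF16, KF18 and KF19, against 4.17, 4.62, 4.71 and 4.76 in KF15, KF17, KF20 and KF21. That of the 29 higher genes was 3.32, 3.62, 3.48 and 3.14 in the low libraries, against 2.39, 2.17, 2.06 and 1.81 in the high libraries. For all genes it was 4.15, 4.39, 4.41 and 4.25 in the low libraries, against 4.24, 4.46, 4.52 and 4.53 in the high libraries. The part of this general level in the placement was not tested. KF17 and KF18 lay with their Bmp10 class and not with the letters of their names on both sets of genes called in wild type. KF15 was the high library nearest the low class on both sets.

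**Figure D5:**
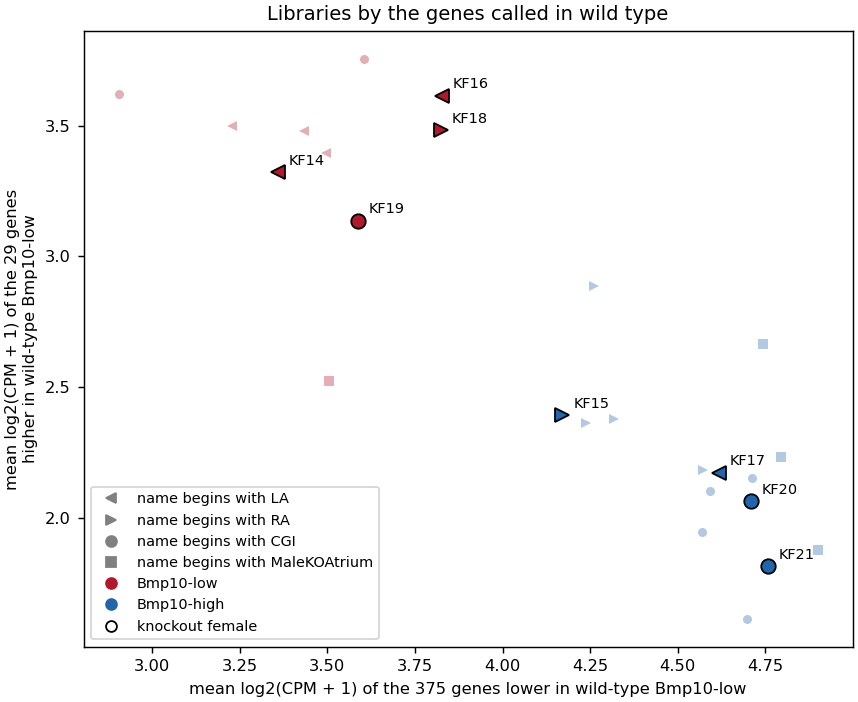
Mean log2(CPM + 1) of the 375 genes lower (horizontal) and the 29 genes higher (vertical) in the wild-type Bmp10-low class, for each library; knockout females are outlined and named, and the shape gives the start of the name. The Bmp10-low knockout females lie at 3.36 to 3.83 and 3.14 to 3.62, and the Bmp10-high ones at 4.17 to 4.76 and 1.81 to 2.39.

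The letters LA and RA in the names give a grouping that uses no measured value as long as all 12 libraries are kept. Over all 12 libraries so named, no gene was called between LA and RA by limma (0%), with 796 at an unadjusted p under 0.05. The genes of smallest p included Zfp36, Fosb and Dusp1 of the early stress response (limma adjusted p = 0.843 each). Without KF17 and KF18, which were taken out for their Bmp10 class, the LA-named libraries are exactly Bmp10-low and the RA-named ones exactly Bmp10-high. This fit is therefore a further comparison by Bmp10 and not an independent one by name. In it 79 genes were called (0.546%), 63 of them lower (0.436%) and 16 higher (0.111%) in the LA-named libraries. For 79 of these 79 genes KF17, an LA name, was nearer the mean of the RA-named libraries, and for 64 of them KF18, an RA name, was nearer the mean of the LA-named ones.

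The genes most like Bmp10 were looked for in the 17 libraries that are not knockout females. The highest Pearson correlations of log2 levels belonged to Togaram2 (0.939), Cd207 (0.928), Cntn2 (0.925), Tbc1d1 (0.923), Gnao1 (0.913) and Gsg1l (0.910), as a description over libraries that fall into 2 Bmp10 classes. In the knockout females, which were not used for this, Cd207, Cntn2 and Gsg1l were called. Togaram2, with 2.61 to 6.59 CPM in the low class, against 7.74 to 14.6 CPM in the high class, was not (limma adjusted p = 0.129), nor were Tbc1d1, a regulator of glucose uptake (0.238 by the same test), and Gnao1, the G protein subunit of Go (0.302). The 1 Bmp10-low knockout male, KM01, lay below all 3 high males of its name set for 106 of the 136 lower genes (77.9%, against 61.0% of all genes) and above them for 43 of the 70 higher genes (61.4%, against 23.4% of all genes). KM01 stood apart from these males in other ways, with 2494461 reads, against 3202655 to 8098602, and 18.5% mitochondrially encoded transcripts, against 9.55 to 9.93%. The part of these measures in the counts was not tested.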

How the data were processed

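RNA of individual mouse atria was made into stranded TruSeq mRNA libraries and sequenced from both ends (75 bases) in 1 NextSeq run that aimed at 20 M reads each, per the labels' protocols. HISAT2, HTSeq, DESeq2 and mm10 are named in the submitters' processing notes, with no versions. The deposited values are CPM, although the header of the authors' table says FPKM: 100% of values in each library were whole multiples of 1 step (tolerance 0.001 reads), which gave whole reads and depths of 2246887 to 8098602 reads per library. The authors' deposited log2 ratios, p-values and averages were not used. The table holds 14467 lines; 10 lines of 5 repeated symbols were left out, which left 14457 genes, of which the lowest mean was 1.001 CPM, so no further filter was applied. The level of 3 reads was 0.407 to 0.652 CPM in the knockout females, and intervals and such floors cover counting error only.

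Each library's group came from its labels, and its Bmp10 class from the threshold of 1000. The members and gene lists were chosen with earlier results of these data known. log2(CPM + 1) was tested with limma 3.58.1 (lmFit, eBayes with trend) in R 4.3.3, with the name set as a term and, in wild type, sex, and Benjamini-Hochberg adjustment over 14456 genes. edgeR 4.0.16 and DESeq2 1.42.0 were run on the whole reads as alternatives, beside other scalings, pseudocounts, filters and left-out libraries. The limma fit was tested on simulated data of the knockout female comparison. It recovered 1.49% of 67 genes changed 1.5-fold, 25.4% of 67 changed 2-fold and 89.4% of 66 changed 4-fold, with 7 false calls. A gene that did not pass may therefore still differ by 2-fold or more, since some genes changed 4-fold were missed too. Named were Bmp10, Pam, the 12 called genes of largest difference in each direction, members of the node and myocyte lists, up to 4 genes of smallest p of each other list, up to 6 for the genotype and the LA and RA comparison, and the 6 most like Bmp10; for others the text says that they were picked later, with values known. Gene positions follow GENCODE M21 (GRCm38), which held 99.1% of the symbols; promoters are from RefSeq. Library numbers do not pair the classes. Some genes that the naming rule covers are not reported here.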

Additional observations from a re-analysis of the deposited data

Results flagged for a closer look

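In groups of 4 libraries, 15 of 190 groups of values had 1 library far from the other 3 by Dixon's criterion, which chance alone gives in about 1 of 20 groups. KF15 accounted for 5 of them in the Bmp10-high class: Myl2 at 3269 CPM (others 72.0 to 533 CPM), the ventricle marker sum at 8577 CPM (others 2008 to 2841 CPM), the erythroid sum at 2350.2 CPM (others 646 to 856 CPM), the fatty acid oxidation sum at 12270.2 CPM (others 6695 to 7515 CPM) and the potassium channel sum at 1286 CPM (others 1914 to 1955 CPM). KF17 accounted for 4, as the highest of the Bmp10-high class: Igfbp3 at 365 CPM (others 226 to 248 CPM), Shox2 at 21.4 CPM (others 11.8 to 12.6 CPM), Sfrp5 at 109.5 CPM (others 58.3 to 61.8 CPM) and Aldh3a1 at 4.89 CPM (others 2.36 to 2.58 CPM). KF20 was the highest of that class for Tnni2 at 14.4 CPM (others 3.39 to 5.10 CPM) and Iyd at 1.47 CPM (others 0.165 to 0.271 CPM). In the Bmp10-low class KF19 was highest for Tnni2 at 84.4 CPM (others 21.4 to 32.2 CPM) and for the fibroblast and collagen sum at 5221 CPM (others 4737 to 4778 CPM). Tyrp1 was at 0 CPM in KF16 (others 0.366 to 0.435 CPM), where 1 read is the smallest step. Bmp10 itself was highest in KF18 at 444 CPM (others 1.26 to 76.5 CPM), in the gene that chose the class.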

How the results depend on the processing

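The 206 calls between Bmp10 classes in knockout females were 24 in the LARA libraries alone, 120 with log2 Bmp10 as a continuous term, 406 with DESeq2 (219 higher, 187 lower), 1316 with library weights, whose estimation stopped before it converged, and 55 to 191 with 1 library left out. In the CGI set alone, 1 low against 2 high libraries with 1 residual degree of freedom, the count was 7568, and the lone low library is assumed to vary like the others. Without KF17 and KF18, an alternative chosen after seeing the data, it was 39. edgeR gave 224 (114 higher, 110 lower), quantile normalization 124 higher and 129 lower, and a fit of all 25 libraries 49 higher and 182 lower. The wild-type count of 404 was 249 with median-ratio scaling and 204 to 2291 with 1 low library left out. The count of 0 for the genotype difference stayed 0 in each alternative run. LA against RA gave 79 calls without KF17 and KF18. Genes whose classes did not overlap numbered 400 (2.77%) at 2-fold and 726 at 1.5-fold. For Pam the difference ranged from -0.27 to -0.02 with 1 library left out. The 49 called genes named kept their side of the threshold in 800 of 980 pairs of gene and alternative and lost the call in 180, with 0 reversals. The causes were not tested. No paired analysis was possible because no library number is shared between the classes or groups of any comparison made here. Wild-type and knockout males share some numbers, but they were not compared. Depth limits genes near 1 CPM, where a value rests on few reads.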
